A study of Homo sapiens with 12 samples.

Results

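The very long genes are the protein-coding genes of the autosomes whose annotated span is at least 500 kb, set here against the shorter genes of the same genome. RefSeq places 303 such genes on GRCh38.p14, and 286 of them are described here, out of 19126 autosomal protein-coding genes. The 17 left out are AUTS2, GALNT17, RBFOX1, RBFOX3, WWOX, RYR2, MAST4, SMYD3, PHACTR1 and the cadherin, protocadherin and DOCK genes of that length. The rule uses only span length, chromosome and gene names, but it was set with earlier results of these data known. The median span was 715 kb and the longest, CNTNAP2, was 2304 kb, and together the spans hold 234 Mb. SPOCK3, PPFIA2 and PPP2R2B lie just inside the limit at 501.6, 501.4 and 500.8 kb. DIAPH3, CPQ and ITPR2 lie just outside it at 498.3, 498.3 and 497.8 kb.

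The libraries profile H3K27ac by CUT&RUN in RPMI 8226, an established human multiple myeloma cell line. H3K27ac is acetylation of lysine 27 of histone H3, a mark of active promoters and enhancers, and CUT&RUN releases the antibody-bound DNA with a tethered nuclease. The 4 groups of 3 libraries each were CEBPB KO cells given 10 µM dexamethasone for 2 h, CEBPB KO cells given DMSO, scramble control cells given 10 µM dexamethasone for 2 h, and scramble control cells given DMSO. Neither the nature of the KO line (clone or pool) nor the origin of replicate libraries (separate cultures or one) is stated in the labels, so p-values measure a spread that may be technical. CEBPB encodes a leucine zipper transcription factor of the C/EBP family, and dexamethasone is a synthetic glucocorticoid that acts through the receptor NR3C1 and is used against myeloma.

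Very long genes are mostly intron. Many of them encode adhesion molecules, synaptic proteins and ion channels known from neurons, and several of the longest coincide with common fragile sites, where late replication leaves chromosomes prone to breakage. Their introns can hold enhancers, so the length under H3K27ac peaks inside a span can reflect distal elements as well as the gene's own promoter. The measurement used throughout is the covered length, the number of base pairs of a gene span that lie under a peak in one library. It records where peaks were called and not their height. A change can mean that fewer cells carry the mark or that each carries less of it, and these cannot be told apart in bulk libraries.

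The 12 libraries held 41164 to 56421 peaks covering 48.0 to 66.4 Mb, and the read depth behind them is not known, as peak lists carry no counts. Replicate 1 of the scramble DMSO group had the most peaks. Of 10 plasma cell and myeloma marker genes, 9 carried peaks in all 12 libraries, with summed covered lengths of 44.3 to 48.3 kb in KO and 34.9 to 42.2 kb in scramble libraries. The T cell genes CD3E, CD3G and TRAT1, the myeloid gene LYZ, the stromal genes COL1A2 and COL3A1 and the neuronal genes STMN2 and DCX were at 0 in all 12. The 7 neuronal markers, with SYT1 among them, summed to 10.7 to 18.7 kb in KO and 9.28 to 20.3 kb in scramble libraries. Of each list of 7, peaks in all 12 libraries were found in 2 T cell, 4 myeloid, 5 stromal or epithelial and 2 neuronal markers. The T cell markers summed to 2.14 to 5.75 kb in KO and 3.21 to 10.1 kb in scramble libraries, the myeloid markers to 10.6 to 14.5 kb in KO and 10.2 to 17.3 kb in scramble libraries and the stromal or epithelial markers to 12.7 to 13.9 kb in KO and 11.3 to 16.6 kb in scramble libraries. The part of such cells in the results was not tested. The span of CEBPB was covered over 2.11 kb in each of the 12 libraries, which does not check the knockout because acetylation of a locus can remain when its protein is lost.

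Coverage of the very long genes was sparse. Peaks were found in all 12 libraries in 190 of the 286 genes, in 1 to 11 libraries in 85, and in no library in 11. The genes without any peak were MGAT4C, SHISA9, TAFA1, KCNIP4, TENM3, SPOCK1, PPP2R2B, KHDRBS2, DLC1, SNTG1 and NKAIN3. Averaged over the 12 libraries, the median gene had 0.381% of its span covered, and 215 of the 286 had under 1%. Covered density had a median of 3.81 bp per kb in very long genes, 9.20 bp per kb in genes of 200 to 500 kb and 44.8 bp per kb in genes under 50 kb. Over the genes that were tested, the median covered length itself was 3.50 kb in very long genes and 3.51 kb in genes of 200 to 500 kb.

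A small set of genes carried much of the covered length. The 15 genes with the largest covered length held 30.6% of the sum over all 286. As means over 12 libraries, DSCAM, a homophilic adhesion molecule, had 55.4 ± 30.3 kb (SD, n = 12). KAZN, which encodes the cytoskeletal protein kazrin, had 48.2 ± 12.5 kb, and PTPRM, a receptor tyrosine phosphatase that binds itself between cells, had 41.3 ± 24.5 kb. Each SD spans both genotypes and both treatments. The zinc finger gene HIVEP3 (38.0 kb), the calcium-binding protein gene CALN1 (37.0 kb), GSE1 (36.6 kb) and the protein kinase C gene PRKCE (35.2 kb) followed. Relative to span, GSE1 (7.22%), HIVEP3 (7.17%) and DSCAM (6.63%) were the most covered. RANBP2, a nuclear pore protein gene, had the highest mean, 58.1 kb, but 35.3% of its annotated span is free of other protein-coding genes and that part carried 8.83 kb. RANBP2 also has near-identical copies, so its value is uncertain. CTNNA3, the gene of an alpha catenin, likewise carried 11.5 of its 30.4 kb outside other protein-coding genes.

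Most of the covered length lay more than 5 kb from the genes' own listed starts. Within 5 kb of a listed start of the same gene lay 10.6% ± 0.914 of it in KO and 8.91% ± 1.01 in scramble libraries (SD, n = 6 each). In genes of 200 to 500 kb the corresponding shares were 16.3% ± 1.17 and 16.2% ± 1.99. Away from any listed start of a protein-coding gene lay 84.3% of the covered length of very long genes in KO and 86.0% in scramble libraries. These shares cover 235 of the 286 very long genes, those with a listed start, and 860 of the 1037 genes of 200 to 500 kb. The list can also lack starts of these genes, and peaks at such starts count as away from a start. The listed start of GSE1, for example, lies inside its span and not at its edge.

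Loss of CEBPB was compared with the scramble control to ask whether acetylation of these genes depends on that factor. In CEBPB KO cells the very long genes took a smaller share of all autosomal covered length, 3.01% ± 0.101 against 3.57% ± 0.230 in scramble cells (SD, n = 6 each). The KO libraries lay between 2.87% and 3.14% and the scramble libraries between 3.34% and 3.98%, without overlap. The net difference in covered length lay largely in few genes. The 9 with the most bins lost in KO cells (DSCAM, CALN1, KIF26B, PTPRM, MACROD2, MECOM, GABRG3, DPP6 and SDK1, chosen after their values were seen) together had 0.0824 Mb covered in KO and 0.371 Mb in scramble cells on average, which is 96.5% of the genotypes' difference in covered length inside very long genes. Without these 9 the share was 2.86% ± 0.0967 in KO and 2.89% ± 0.210 in scramble cells, and the libraries overlapped, with 2.72% to 2.97% in KO and 2.66% to 3.27% in scramble. As the 9 were picked for their losses, leaving them out was bound to narrow the difference. Gains and losses among the other genes can cancel in such sums, so this does not show that few genes changed. Total covered length did not separate the genotypes, at 51.9 to 64.5 Mb in KO and 48.0 to 66.4 Mb in scramble libraries. The number of very long genes with a peak was 224 to 242 in KO and 232 to 259 in scramble libraries.

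Single genes moved in both directions. The test was limma on log2(covered length + 500 bp) after quantile normalisation, over all 14770 genes with coverage in at least 3 libraries, with Benjamini-Hochberg adjustment over all of them and a call at an adjusted p under 0.05. Of the 286 very long genes, 258 could be tested, 17 were covered in only 1 or 2 libraries and 11 in 0. Genes covered in 1 group alone can enter the test only because that group is high. Averaged over both treatments, 120 of the 258 were called, 53 higher and 67 lower in KO. That is 46.5%, whereas 10.6% of all tested genes were called, 5.74% higher and 4.83% lower. The 6 KO libraries lay wholly above the 6 scramble libraries in 36 of the 258 and wholly below them in 50, and groups did not overlap in 6.70% of all tested genes. The median size of the difference, regardless of sign, was 0.59 on the log2 scale in very long genes and 0.17 over all tested genes, while the signed medians were -0.06 and -0.01.

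The share of called genes was larger in each longer class of gene. It was 46.5% in very long genes, 28.5% at 200 to 500 kb, 19.5% at 100 to 200 kb, 11.5% at 50 to 100 kb and 5.52% under 50 kb. The classes also differ in covered length and in how far that length lies from a start, and the part of these in the order was not tested. Calls in very long genes were more often lower than higher in KO, while in the classes of 200 to 500 kb and 100 to 200 kb they were more often higher. Among the very long genes themselves the share was 45.5% at 500 to 750 kb, 45.2% at 750 kb to 1 Mb and 50.9% at 1 Mb and over.

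**Figure D1:**
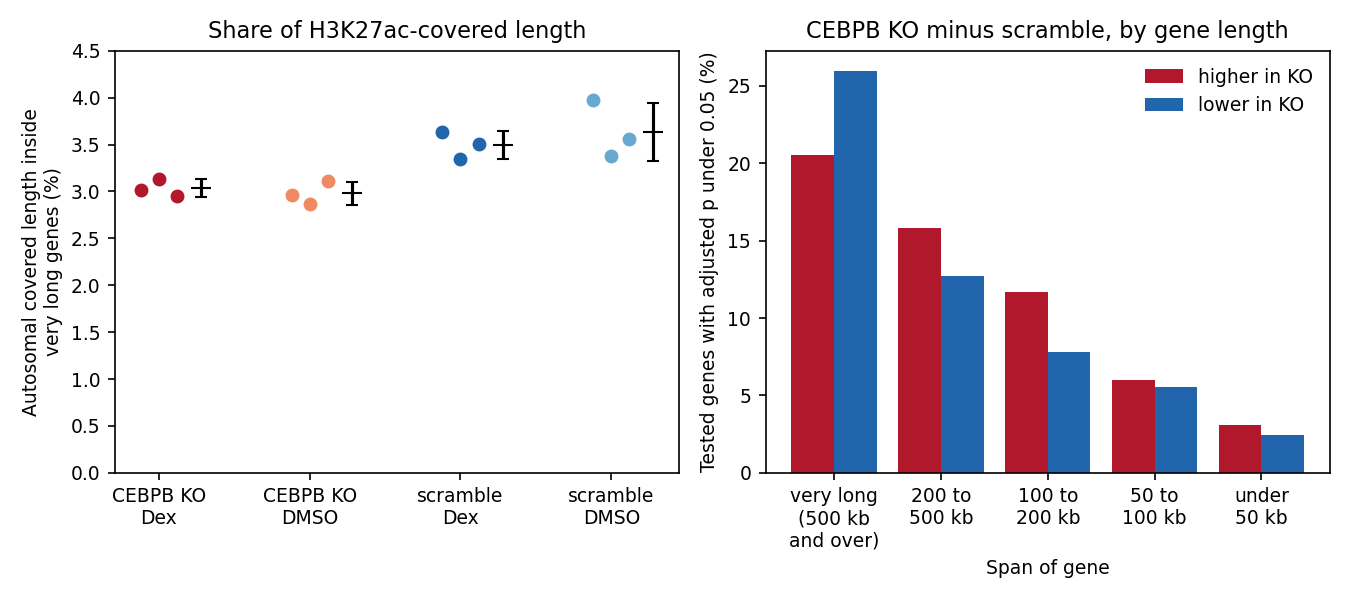
Left, share of autosomal covered length that lies inside very long genes (percent), 1 point per library with the group mean and SD beside it (n = 3 each); all 6 KO points, 2.87% to 3.14%, lie under all 6 scramble points. Right, percent of tested genes called higher (red) or lower (blue) in KO than in scramble cells by class of span, with the very long genes at 20.5% higher and 26.0% lower.

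The genes that fell furthest in KO cells had lost most or all of their coverage. SDK1, an immunoglobulin-family adhesion molecule at chr7:3301252-4269000, was listed at 0 in all 6 KO libraries, and its lowest, median and highest scramble libraries had 9.45, 11.9 and 14.0 kb (limma adjusted p = 6.30e-10). GABRG3, a subunit of the receptor for the inhibitory transmitter GABA at chr15:26971181-27541984, was likewise at 0 in all 6 KO libraries, with 8.91, 11.2 and 14.5 kb in scramble libraries (limma adjusted p = 4.18e-10). In both genes the KO group was thus empty where no scramble library was under 8 kb. Both entered the test only through their scramble libraries, so their adjusted p values are not evidence apart from that pattern. KIF26B, a kinesin-family gene at chr1:245154985-245709432, had 1.80, 2.45 and 3.34 kb as lowest, median and highest values in KO, against 24.0, 30.2 and 37.7 kb in scramble libraries. The 2 groups lay far apart, and the difference was -3.29 ± 0.11 on the log2 scale (SE, limma adjusted p = 2.20e-08). MECOM, which encodes the EVI1 transcription factor of blood stem cells and is rearranged in leukaemia, lies at chr3:169083507-169663712 and had 1.47, 2.17 and 6.50 kb in KO, against 23.4, 28.2 and 45.0 kb in scramble libraries. Its highest KO library, dexamethasone replicate 2, stood above the other KO libraries and still far under the lowest scramble library (log2 difference -3.28 ± 0.25, limma adjusted p = 1.16e-05).

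MAGI1, a scaffold protein of cell junctions at chr3:65353526-66038918, had 0, 0 and 0.319 kb in KO, against 2.97, 4.25 and 5.17 kb in scramble libraries, a difference of -3.14 ± 0.12 (limma adjusted p = 7.53e-08). NKAIN2, whose product binds a subunit of the sodium pump, had 0, 0 and 0.435 kb in KO, against 2.56, 3.60 and 6.13 kb in scramble libraries. KSR2, a scaffold of the Ras to MAP kinase pathway, had 0, 0.0325 and 0.0960 kb in KO, against 2.60, 3.80 and 4.81 kb in scramble libraries. Within 1 kb of its listed start KSR2 stayed covered in all 12 libraries, with 738 to 1039 bp in KO and 1112 to 1156 bp in scramble libraries. In KO libraries most of that coverage lay outside the span, so the span values do not show an unmarked promoter. MAGI1 was at 0 in 4 and NKAIN2 in 5 of the 6 KO libraries, and KO and scramble libraries did not overlap in these 3 genes. The adhesion G protein-coupled receptor genes ADGRB3 and ADGRL2 fell too. ADGRB3 had 0, 0 and 0.306 kb in KO, against 1.23, 3.18 and 11.0 kb in scramble libraries, and ADGRL2 had 0, 0 and 1.70 kb in KO, against 1.84, 3.60 and 4.11 kb in scramble libraries. The highest ADGRB3 value, in scramble DMSO replicate 1, stood apart from the other 5 scramble libraries. ADGRB3 no longer passed when peaks with a −log10 q under 3 were left out (log2 difference -0.78, adjusted p = 0.154).

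DPP6, an auxiliary subunit of voltage-gated potassium channels at chr7:153748133-154894285, kept a part of its coverage, with 3.69, 4.67 and 5.34 kb in KO, against 20.4, 21.1 and 28.4 kb in scramble libraries (-2.18 ± 0.08, limma adjusted p = 4.99e-08). CALN1, at chr7:71779491-72504279, had 10.1, 13.4 and 14.3 kb in KO, against 48.7, 60.8 and 73.7 kb in scramble libraries (-1.99 ± 0.07, limma adjusted p = 3.13e-08). MACROD2, which encodes an enzyme that removes ADP-ribose from proteins and lies in a fragile site at chr20:13995516-16053197, had 11.5, 13.6 and 16.5 kb in KO, against 42.1, 52.6 and 76.6 kb in scramble libraries (-1.72 ± 0.08, limma adjusted p = 3.19e-07). These 3 genes differed by far more than the spread among libraries, and the groups did not overlap. PTPRM, at chr18:7567316-8406856, had 15.7, 17.9 and 22.2 kb in KO, against 55.8, 61.4 and 79.3 kb in scramble libraries (-1.47 ± 0.05, limma adjusted p = 2.74e-08). DSCAM, at chr21:40010999-40847158, had 20.6, 28.8 and 32.8 kb in KO, against 70.7, 83.8 and 96.8 kb in scramble libraries (-1.35 ± 0.09, limma adjusted p = 3.20e-06). In PTPRM and DSCAM too, the KO and scramble libraries did not overlap.

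The genes that rose furthest in KO cells were mostly small in coverage. ROBO1, the receptor of SLIT guidance ligands at chr3:78597239-79767998, was listed at 0 in all 6 scramble libraries and had 3.45, 3.60 and 6.13 kb as lowest, median and highest values in KO (limma adjusted p = 1.39e-07). ROBO1 entered the test only through its KO libraries, so its adjusted p is not evidence apart from that pattern. RIMS2, a scaffold of vesicle release sites at chr8:103500610-104256094, had 6.36, 7.56 and 12.0 kb in KO, against 0, 0.827 and 1.01 kb in scramble libraries, a difference of 2.95 ± 0.30 (limma adjusted p = 1.18e-04). Each KO library of RIMS2 was above 6 kb and each scramble library near 1 kb or under it. CADM2, an adhesion molecule, had 0.540, 3.71 and 4.21 kb in KO, against 0, 0 and 0.00700 kb in scramble libraries (2.67 ± 0.31, limma adjusted p = 2.85e-04). ANK2, the gene of ankyrin B, had 1.69, 2.68 and 3.36 kb in KO, against 0, 0.127 and 0.922 kb in scramble libraries (2.13 ± 0.25, limma adjusted p = 2.95e-04). One KO library of CADM2, DMSO replicate 2, stood far under the other 5. STARD13, a GTPase-activating protein at chr13:33103137-33676794, had the largest coverage among the genes that rose furthest, with 20.8, 24.7 and 30.9 kb in KO, against 4.71, 5.43 and 7.97 kb in scramble libraries (2.04 ± 0.10, limma adjusted p = 3.56e-07). NEBL, an actin-binding protein gene, had 3.49, 4.39 and 5.63 kb in KO, against 0.513, 0.711 and 1.30 kb in scramble libraries (1.87 ± 0.13, limma adjusted p = 6.23e-06).

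The other rises among the 10 largest were in CCSER1, NBEA, SLC24A2 and ATP8A2. CCSER1, a fragile site gene, had 0.893, 1.31 and 2.80 kb in KO, against 0, 0 and 0.282 kb in scramble libraries. NBEA, which encodes neurobeachin, a protein of membrane trafficking, had 1.45, 2.15 and 2.77 kb in KO, against 0, 0.212 and 0.795 kb in scramble libraries. SLC24A2, a sodium and calcium exchanger, had 1.62, 2.73 and 3.53 kb in KO, against 0, 0.566 and 1.25 kb in scramble libraries. In these 3 the KO libraries lay above the scramble libraries throughout. ATP8A2, a lipid flippase, had 1.46, 1.77 and 2.15 kb in KO, against 0, 0 and 1.34 kb in scramble libraries. Its call was weak: the adjusted p was 0.0256 and it lay above the threshold in 9 of the 12 fits that left out 1 library, for example 0.0617 without scramble dexamethasone replicate 3.

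**Figure D2:**
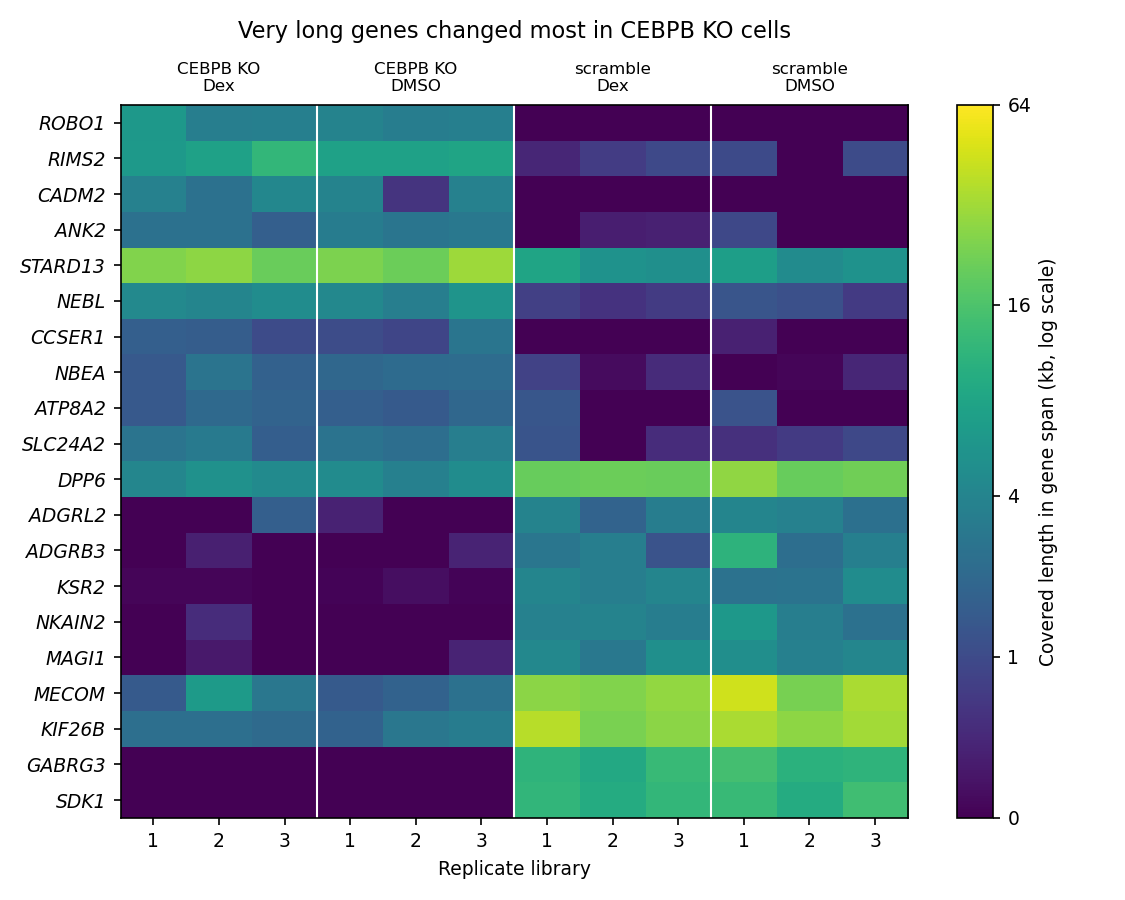
Covered length (kb, colour on a log scale) of the 10 very long genes that rose furthest and the 10 that fell furthest in KO cells, 1 row per gene and 1 column per library. SDK1 and GABRG3 are at 0 in all 6 KO libraries, and ROBO1 is at 0 in all 6 scramble libraries.

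Genes were also grouped by role, and a gene can stand in more than 1 group. Of the 286, 92 were in no group. The counts by group stand against 46.5% called among all tested very long genes and 10.6% among all tested genes. In either direction, the calls took 59.1% of the synapse and cell adhesion genes, 33.3% of the ion channel and receptor genes, 33.3% of the receptor tyrosine phosphatase genes, 43.8% of the kinase, phosphodiesterase and small G protein genes and 64.3% of the blood cell genes. They took 52.6% of the fragile site genes, 43.5% of the transcription, chromatin and RNA genes, 42.9% of the trafficking, cytoskeleton and DNA repair genes and 34.8% of the metabolism, transport and matrix genes. No group was tested against the others. Of 51 synapse and cell adhesion genes 44 were tested, and 9 rose and 17 fell in KO cells, with a median log2 difference of -0.41, while the median over all tested genes was -0.01. Those that rose included ROBO1, CADM2 and CNTN4, a contactin, which had 6.10, 7.48 and 8.75 kb in KO, against 1.26, 1.70 and 5.54 kb in scramble libraries. Those that fell included SDK1, DSCAM and RELN, the gene of the secreted guidance protein reelin, with 0.596, 0.719 and 0.858 kb in KO, against 2.87, 4.01 and 5.29 kb in scramble libraries. The ligand gene SLIT3 was at 0 in all 6 KO libraries and had 0.559, 1.65 and 2.09 kb in scramble libraries, so SLIT3 and the receptor gene ROBO1 moved in opposite directions. NRG3, a ligand of the receptor ERBB4, was at 0 in KO, against 0.815, 0.914 and 1.04 kb in scramble libraries. SDK1, GABRG3, SLIT3, NRG3 and SGCD were at 0 in every KO library and covered in every scramble library. ROBO1 and NPAS3 showed the converse. Such genes entered the test only through the genotype where they were covered. The same pattern was not counted over all tested genes, so whether it is more frequent in very long genes cannot be said. RELN, SLIT3 and SGCD were picked after their values were seen.

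Among 15 tested ion channel and transmitter receptor genes, 1 rose and 4 fell (GABRG3, DPP6, TRPM3 and ASIC2). TRPM3, a cation channel, had 1.06, 2.18 and 3.08 kb in KO, against 6.21, 7.15 and 9.48 kb in scramble libraries. Of 6 receptor tyrosine phosphatase genes 0 rose and 2 fell, PTPRM and PTPRN2. PTPRN2 had 0, 1.14 and 2.35 kb in KO, against 3.34, 5.30 and 7.25 kb in scramble libraries. PTPRT missed the threshold, with 7.20, 8.28 and 8.61 kb in KO, against 6.38, 9.15 and 14.2 kb in scramble libraries and overlapping groups (limma adjusted p = 0.0990). Among 32 kinase, phosphodiesterase and small G protein genes, 8 rose and 6 fell. The phosphodiesterases PDE4B and PDE4D, which degrade cyclic AMP, both rose. PDE4B had 14.1, 16.5 and 18.3 kb in KO, against 4.87, 7.71 and 10.1 kb in scramble libraries (1.06 ± 0.11, limma adjusted p = 1.03e-04). PDE4D had 25.2, 27.2 and 31.7 kb in KO, against 13.0, 16.8 and 20.1 kb in scramble libraries (0.86 ± 0.06, limma adjusted p = 4.72e-06). Both were above all scramble libraries in all 6 KO libraries. The protein kinase C gene PRKCA had 9.68, 10.9 and 11.4 kb in KO, against 3.05, 5.56 and 9.40 kb in scramble libraries (0.89 ± 0.10, limma adjusted p = 2.72e-04).

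Of 14 genes with known roles in blood cells, 5 rose (PDE4B, LPP, PDE4D, ELMO1 and ZBTB20) and 4 fell (MECOM, INPP4B, ARHGAP15 and LRBA). ELMO1, a partner of DOCK proteins in activating Rac, had 20.1, 23.6 and 25.1 kb in KO, against 9.51, 13.9 and 18.8 kb in scramble libraries. INPP4B, a lipid phosphatase, had 2.75, 3.37 and 4.81 kb in KO, against 5.21, 7.22 and 11.4 kb in scramble libraries. Neither gene's groups overlapped. Of 19 common fragile site genes, 4 rose and 6 fell. MACROD2 and CNTNAP2 were among those that fell, CNTNAP2 with 5.79, 7.84 and 9.38 kb in KO, against 13.2, 14.7 and 21.1 kb in scramble libraries. FHIT did not pass, at 2.62, 3.95 and 5.17 kb in KO, against 2.71, 3.98 and 7.19 kb in scramble libraries, and its groups overlapped widely. Of 23 transcription, chromatin and RNA genes, 5 rose and 5 fell. NPAS3, a transcription factor of the bHLH-PAS family, was at 0 in all 6 scramble libraries and had 0.535, 0.848 and 1.40 kb in KO. NPAS3 no longer passed when weak peaks were left out (adjusted p = 0.160). Of 35 trafficking, cytoskeleton and DNA repair genes, 9 rose and 6 fell, and of 23 metabolism, transport and matrix genes, 6 rose and 2 fell. LPP, INPP4B, ARHGAP15, CNTNAP2 and FHIT were picked after their values were seen.

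For the most covered genes the normalisation mattered. GSE1, whose product is a chromatin-associated coiled-coil protein, had 26.3, 30.5 and 35.1 kb in KO, against 37.8, 40.8 and 50.9 kb in scramble libraries, and these measured groups did not overlap. After quantile normalisation its log2 difference was -0.10 ± 0.08 and did not pass (limma adjusted p = 0.538), but without normalisation it was -0.47 (adjusted p = 0.00918). PRKCE had 28.9, 40.6 and 54.3 kb in KO, against 25.8, 31.3 and 35.6 kb in scramble libraries, and rose by 0.67 ± 0.09 (limma adjusted p = 0.00114), a call lost without normalisation (adjusted p = 0.111). The sodium and hydrogen exchanger gene SLC9A9 (0.71 ± 0.10) and NAALADL2 (0.65 ± 0.12), both called higher, lost their calls in the same way. RANBP2 was called higher (0.36 ± 0.07, limma adjusted p = 0.00636) although its measured values, 49.9, 55.8 and 61.4 kb in KO and 43.7, 62.6 and 68.7 kb in scramble libraries, overlapped. Its direction turned without normalisation, with scaling to total covered length and with the parts in other genes left out.

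The knockout was then compared under each treatment, with no library shared between the 2 comparisons. Both came from 1 fit over all 12 libraries, with the same normalisation and the same estimate of each gene's spread. The 2 lists of calls are therefore not independent. Under dexamethasone 79 of 258 genes were called, 34 higher and 45 lower in KO, while 5.94% of all tested genes were called, 3.19% higher and 2.76% lower. Under DMSO 68 were called, 24 higher and 44 lower, while 5.80% of all tested genes were called, 2.88% higher and 2.92% lower. Both lists held 58 genes, 73.4% of the dexamethasone list and 85.3% of the DMSO list, and all 58 had the same sign, 21 higher and 37 lower. STARD13 differed by 1.97 ± 0.14 under dexamethasone and 2.11 ± 0.14 under DMSO, and PTPRM by -1.38 ± 0.07 under dexamethasone and -1.56 ± 0.07 under DMSO. MAGI2, a relative of MAGI1, was called under dexamethasone (adjusted p = 0.0441) and missed the threshold under DMSO (adjusted p = 0.0551) with nearly the same difference, 1.23 ± 0.31 and 1.17 ± 0.31. The difference between the 2 comparisons is the interaction tested further on, and no very long gene passed it.

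**Figure D3:**
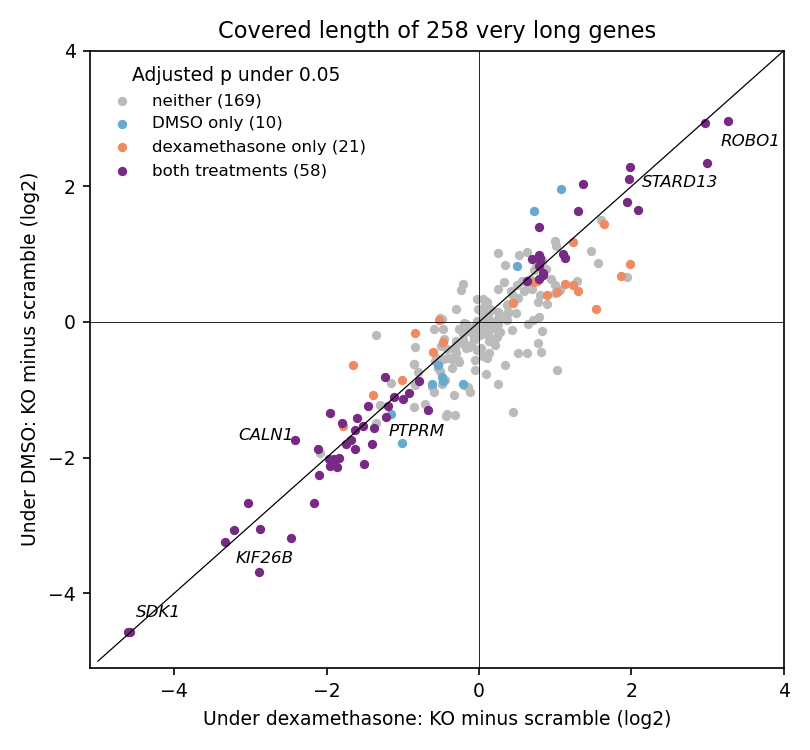
Log2 difference in covered length, KO minus scramble, under dexamethasone (horizontal) and under DMSO (vertical) for the 258 tested very long genes, coloured by the comparison in which the adjusted p was under 0.05. The 58 genes called under both treatments all lie in the lower left or upper right, and the line marks equal differences.

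Inside the spans, KO cells lost more sites than they gained, and a few genes held many of the losses. Autosomes were divided into bins of 500 bp, and a bin counted as present where a library covered 250 bp of it or more. Bins present in all libraries of one genotype and absent from all of the other were counted, with no test, since neighbouring bins are not independent. Inside very long genes, 2947 bins were present in at least 6 of the 12 libraries. Of these, 79 (2.68%) were present in all 6 KO and absent from all 6 scramble libraries. Another 314 (10.7%) were absent from all 6 KO and present in all 6 scramble libraries. Over all autosomal bins present in at least 6 of the 12 libraries these shares were 1.99% and 2.72%. The lost bins fell in 61 genes and the gained bins in 48. DSCAM lost 37 bins, CALN1 32, KIF26B 30 and PTPRM 28, 127 bins together. MACROD2 lost 16 and gained 2, MECOM lost 15, GABRG3 14, SDK1 13 and DPP6 13. MAGI2 and STARD13 gained 8 bins each and ROBO1 gained 5.

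The longest lost stretch, 3.5 kb, was in DSCAM at chr21:40678501-40682000, followed by 3.0 kb in CALN1 at chr7:72243501-72246500. SDK1 lost 2.5 kb at chr7:4106001-4108500 and again at chr7:4167501-4170000. The longest gained stretch, 2.0 kb, was in ROBO1 at chr3:78887501-78889500, and the next, 1.5 kb, was in MAGI2 at chr7:79211501-79213000. EPHA6, an ephrin receptor gene, gained 1.0 kb over its start at chr3:96814501-96815500 while over its whole span the groups overlapped, with 3.08, 3.41 and 4.47 kb in KO and 2.19, 3.38 and 5.07 kb in scramble libraries (limma adjusted p = 0.980). Coordinates are on hg38, and whether these stretches are exonic or intronic was not examined because the gene table used holds no exons. Loss was not complete in the genes with the most lost bins. DSCAM kept 19 bins and PTPRM 16 in all 12 libraries, whereas KIF26B kept 2 and SDK1 and GABRG3 kept 0. The next shares are of bins present in at least 3 of the 6 libraries compared. Under dexamethasone, 247 of 3243 such bins inside very long genes (7.62%) were gained and 515 (15.9%) lost in KO. Over all autosomal bins under that rule the shares were 5.61% and 5.37%. Under DMSO, 199 of 3428 such bins (5.81%) were gained and 513 (14.96%) lost, against 4.58% and 4.98% over all autosomal bins under that rule.

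**Figure D4:**
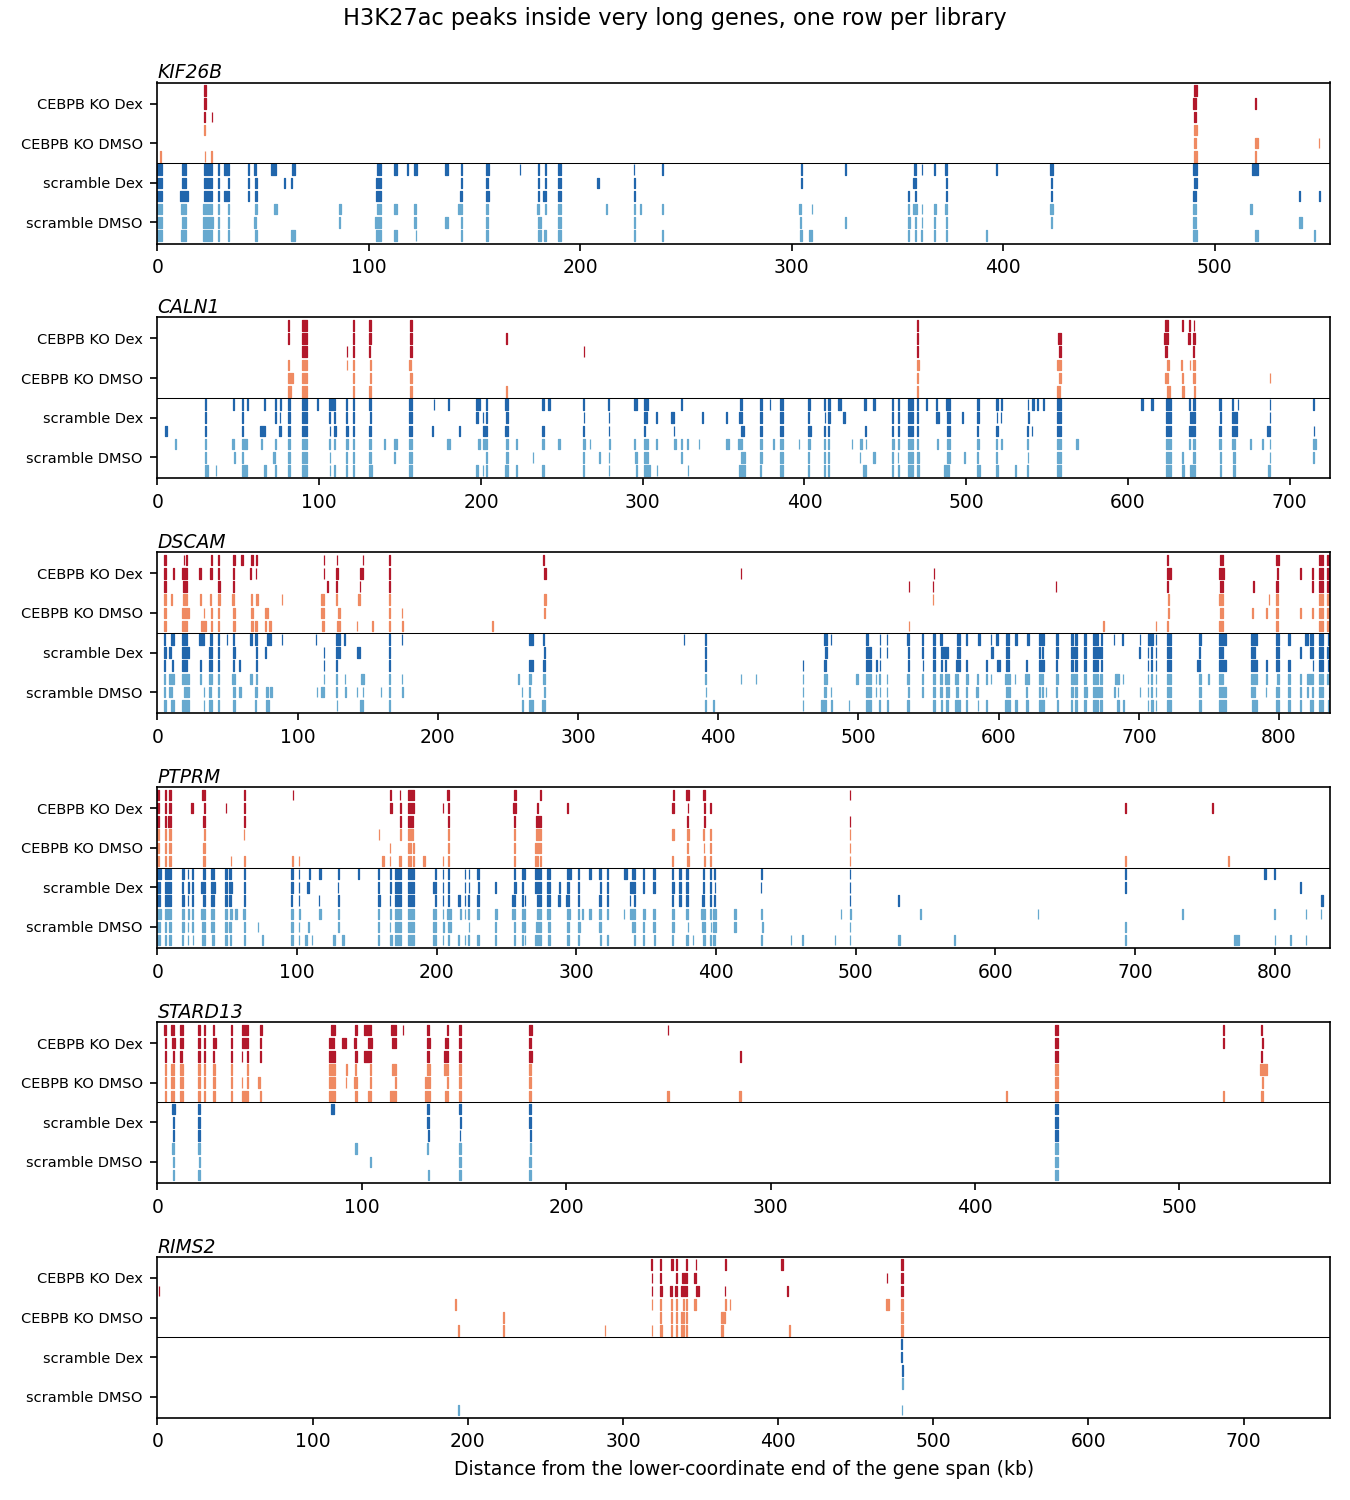
Peaks inside 6 very long genes, 1 row per library (top to bottom: KO dexamethasone, KO DMSO, scramble dexamethasone, scramble DMSO, 3 rows each), plotted by distance in kb from the lower-coordinate end of the span. KIF26B, CALN1, DSCAM and PTPRM show many scramble peaks with no counterpart in KO rows beside a smaller number shared by all rows, and STARD13 and RIMS2 show the converse.

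Starts were examined separately. RefSeq lists 541 starts for 235 of the 286 genes, and the other 51 had no listed start. KIF26B is among the 51, so a change at its start could not be counted here. Its stretch chr1:245155001-245157000, at the lower-coordinate edge of its span, was absent from all 6 KO and present in all 6 scramble libraries. Within 1 kb of the start, 107 of the 541 carried a peak in all 12 libraries and 360 in none. For 117 of the 235 genes no listed start carried a peak in any library. Coverage in at least 6 libraries was found at 134 starts. Of these, 2 were covered in all 6 KO and no scramble library and 5 in no KO and all 6 scramble libraries, against 0.506% and 0.803% of 12448 starts of autosomal protein-coding genes. The 2 gained starts belong to ADGRV1, an adhesion G protein-coupled receptor, and SYT1, the calcium sensor of vesicle release. The 5 lost starts belong to DPP6 (3 starts), DCDC1, a doublecortin-domain gene, and PTPRD, a receptor tyrosine phosphatase. The DPP6 starts at chr7:153887042 and chr7:153887334 lie within 1 kb of each other, so their windows overlap and share coverage. These genes, and EPHA6, were picked after their values were seen.

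The promoters at these starts are shown because they are the listed starts at which coverage switched completely between genotypes. Each is 300 bases from RefSeq on GRCh38.p14, 250 before and 50 after the start, written 5′ to 3′ on the gene's strand. ADGRV1 lies at chr5:90558547-90558846 (plus strand), SYT1 at chr12:78864524-78864823 (plus), DCDC1 at chr11:30992476-30992775 (minus), the most downstream DPP6 start at chr7:154052148-154052447 (plus) and PTPRD at chr9:8779342-8779641 (minus). Capitals mark matches on either strand to the GC box GGGCGG, searched beside the C/EBP core TTGCNNAA, the glucocorticoid response element (AGAACA and TGTNCT spaced by 3 bases) and the TATA box TATAAA.
ADGRV1: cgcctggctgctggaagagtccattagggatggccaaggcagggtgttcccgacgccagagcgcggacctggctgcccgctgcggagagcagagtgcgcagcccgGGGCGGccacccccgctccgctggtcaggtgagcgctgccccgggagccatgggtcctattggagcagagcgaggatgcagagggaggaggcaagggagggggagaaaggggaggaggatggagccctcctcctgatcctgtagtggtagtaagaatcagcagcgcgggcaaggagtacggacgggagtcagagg
SYT1: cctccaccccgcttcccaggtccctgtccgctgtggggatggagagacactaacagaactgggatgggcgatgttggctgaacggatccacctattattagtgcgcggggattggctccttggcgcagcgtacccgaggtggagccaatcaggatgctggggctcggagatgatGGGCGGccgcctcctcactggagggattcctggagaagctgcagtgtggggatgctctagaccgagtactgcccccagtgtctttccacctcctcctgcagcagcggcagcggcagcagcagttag
DCDC1: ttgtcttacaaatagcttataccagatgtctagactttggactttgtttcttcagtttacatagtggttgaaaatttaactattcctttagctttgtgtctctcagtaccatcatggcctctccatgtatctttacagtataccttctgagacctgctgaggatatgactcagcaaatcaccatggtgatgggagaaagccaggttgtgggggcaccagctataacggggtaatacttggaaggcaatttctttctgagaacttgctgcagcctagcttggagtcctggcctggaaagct
DPP6: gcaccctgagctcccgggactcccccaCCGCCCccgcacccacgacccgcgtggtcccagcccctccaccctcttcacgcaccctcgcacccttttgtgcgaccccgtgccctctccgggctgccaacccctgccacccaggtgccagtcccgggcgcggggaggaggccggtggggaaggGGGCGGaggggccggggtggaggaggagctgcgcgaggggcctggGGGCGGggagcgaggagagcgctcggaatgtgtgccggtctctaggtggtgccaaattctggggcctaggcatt
PTPRD: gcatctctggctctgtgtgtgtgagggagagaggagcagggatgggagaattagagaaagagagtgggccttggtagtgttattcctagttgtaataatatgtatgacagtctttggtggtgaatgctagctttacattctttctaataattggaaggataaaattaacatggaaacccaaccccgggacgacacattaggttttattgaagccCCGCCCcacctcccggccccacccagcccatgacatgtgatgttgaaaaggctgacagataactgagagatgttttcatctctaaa
DPP6 held 3 GC box matches, ADGRV1, SYT1 and PTPRD 1 each and DCDC1 0. The C/EBP, glucocorticoid and TATA letters were not found in these 5 windows or in those of the other 2 DPP6 starts. Over 21156 promoters of autosomal protein-coding genes, 56.6% held the GC box, 8.68% the C/EBP core, 9.51% the TATA box and 0.0142% the glucocorticoid element. In the 541 promoters of very long genes these shares were 41.8%, 10.7%, 10.5% and 0%. No matches of different motifs overlapped in the windows shown, and a match is a description of sequence, not a bound site.

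These starts were selected because coverage within 1 kb was present in all libraries of 1 genotype and absent from all of the other. The ADGRV1 start had 679, 533 and 672 bp in KO dexamethasone libraries and 721, 597 and 668 bp in KO DMSO libraries, and 0 in all 6 scramble libraries. The SYT1 start had 866, 648 and 1092 bp in KO dexamethasone libraries and 484, 608 and 1004 bp in KO DMSO libraries, and 0 in scramble libraries. Over their whole spans both genes were covered in scramble cells too, ADGRV1 with 4.73, 5.89 and 7.89 kb in KO, against 2.34, 3.55 and 5.18 kb in scramble libraries (0.60 ± 0.14, limma adjusted p = 0.0169, and 0.142 with weak peaks left out). SYT1 did not pass over its span, with 4.06, 4.89 and 6.21 kb in KO, against 1.58, 2.45 and 7.19 kb in scramble libraries (limma adjusted p = 0.118). It passed in 1 of the 12 fits that left out 1 library, that without scramble DMSO replicate 1, its highest scramble library (adjusted p = 0.0105). The highest adjusted p among these fits was 0.228.

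The DPP6 start shown had 0 bp in all 6 KO libraries, against 1536, 1576 and 1380 bp in scramble dexamethasone and 1847, 1785 and 1657 bp in scramble DMSO libraries. The DCDC1 start had 0 bp in KO, against 1114 to 1249 bp in scramble libraries, while a second DCDC1 start further upstream had 515 to 737 bp in KO and 629 to 839 bp in scramble libraries. Over its span DCDC1 fell in KO, with 0.163, 0.396 and 0.707 kb in KO, against 2.52, 3.03 and 3.98 kb in scramble libraries (-2.04 ± 0.14, limma adjusted p = 4.46e-06). The PTPRD start had 0 bp in KO, against 338 to 1322 bp in scramble libraries, and the span of PTPRD did not pass, with 9.34, 12.5 and 16.4 kb in KO, against 10.0, 11.0 and 15.8 kb in scramble libraries (limma adjusted p = 0.692). A start and the rest of a span thus did not always move together.

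Dexamethasone was compared with DMSO to ask which of these genes respond within 2 h. Few genes passed the test. In KO cells limma called 0 of 258 very long genes and 0.0745% of all tested genes, and 19 very long genes (7.36%) had an unadjusted p under 0.05, with 6.09% of all tested genes. In scramble cells it called 0 of 258 and 0.108% of all tested genes, and 28 (10.9%) had an unadjusted p under 0.05, with 7.31% of all tested genes. Averaged over both genotypes, 2 genes were called at the edge of the threshold, 1 higher and 1 lower, and the lower one, B3GALT1, is described here. Of all tested genes 0.0677% were called, 0.0542% higher and 0.0135% lower. An unadjusted p under 0.05 was found for 31 very long genes (12.0%) and 8.36% of all tested genes.

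B3GALT1, a galactosyltransferase gene at chr2:167293001-167874045, had 0, 0.00500 and 0 kb in KO dexamethasone, against 0.439, 0.370 and 0.492 kb in KO DMSO libraries. It had 1.09, 0.700 and 1.21 kb in scramble dexamethasone, against 1.87, 2.07 and 2.11 kb in scramble DMSO libraries. Dexamethasone libraries were the lower ones in both genotypes, without overlap within a genotype, and the averaged difference was -0.74 ± 0.10 on the log2 scale (SE, limma adjusted p = 0.0497). B3GALT1 was also lower in KO than in scramble libraries (-1.51 ± 0.10, limma adjusted p = 4.70e-06). The dexamethasone call of B3GALT1 was not stable to leaving out 1 library: it passed in 2 of the 12 such fits, with an adjusted p of up to 0.112.

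Other genes of small p did not pass. AFF3, a transcription elongation factor gene studied in lymphoid cells, had 0, 0.315 and 0 kb in KO dexamethasone, against 0, 1.73 and 0.812 kb in KO DMSO libraries, and 0.271, 0 and 0 kb in scramble dexamethasone, against 1.46, 1.48 and 1.33 kb in scramble DMSO libraries. Its averaged difference was -1.37 ± 0.31 (limma adjusted p = 0.258). AFF3 passed in 1 of the 12 fits that left out 1 library, that without KO DMSO replicate 1, which was at 0 (adjusted p = 0.0184). The highest adjusted p among these fits was 0.438. PDE4D had 27.5, 31.7 and 26.9 kb in KO dexamethasone, against 26.1, 25.2 and 30.9 kb in KO DMSO libraries, and 19.5, 16.5 and 17.1 kb in scramble dexamethasone, against 20.1, 14.8 and 13.0 kb in scramble DMSO libraries, with groups that overlapped (limma adjusted p = 0.280). PTPRT had the smallest adjusted p in scramble cells, 0.0982, with 14.2, 9.35 and 11.1 kb in dexamethasone, against 8.95, 6.38 and 8.59 kb in DMSO libraries. The zinc finger gene ZFHX3 had 0, 0 and 0.748 kb in scramble dexamethasone, against 2.11, 2.01 and 1.41 kb in scramble DMSO libraries (limma adjusted p = 0.161). ZFHX3 passed in 1 of the 12 fits that left out 1 library, that without scramble dexamethasone replicate 3 (adjusted p = 0.0170). Its highest adjusted p among these fits was 0.374. PPFIA2, a liprin gene, had 0.431, 0 and 0 kb in scramble dexamethasone, against 0.885, 0.556 and 0.765 kb in scramble DMSO libraries (limma adjusted p = 0.194). PPFIA2 also passed in 1 of the 12 such fits, that without scramble dexamethasone replicate 1 (adjusted p = 0.0222), and its highest adjusted p was 0.447.

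**Figure D5:**
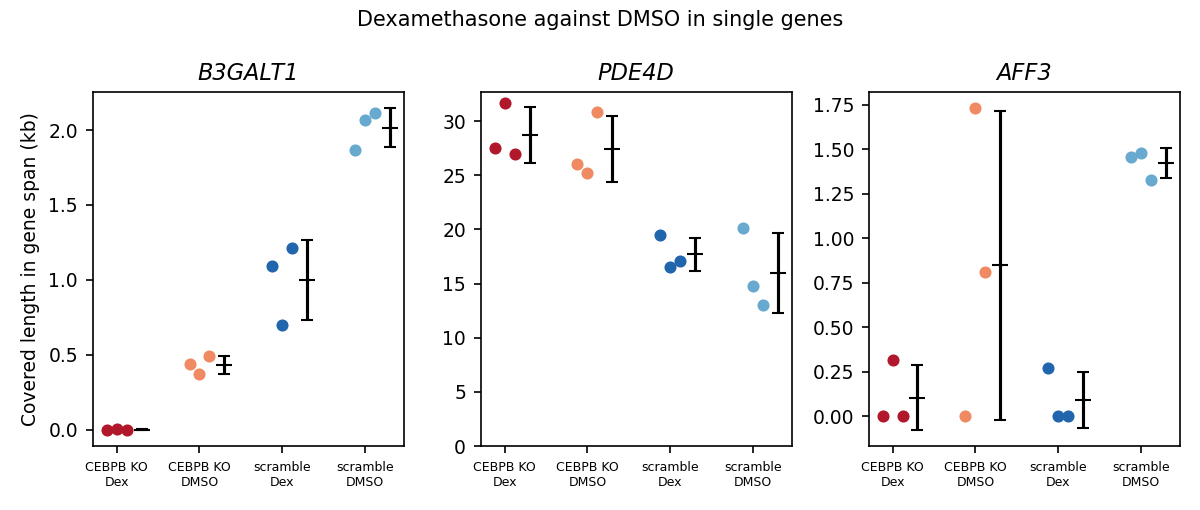
Covered length (kb) of B3GALT1, PDE4D and AFF3, 1 point per library with the group mean and SD beside it (n = 3 each). The dexamethasone points of B3GALT1 lie below the DMSO points of the same genotype; PDE4D and AFF3 did not pass the test.

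Bin counts for dexamethasone were low as well. In very long genes 1 bin, at chr5:90956501-90957000 in ADGRV1, was present in all 6 dexamethasone and absent from all 6 DMSO libraries, and 0 showed the converse. Over all autosomal bins present in at least 6 of the 12 libraries these shares were 0.0779% and 0.0162%. The next shares are of bins present in at least 3 of the 6 libraries compared. In KO cells 36 bins were gained and 44 lost with dexamethasone, 1.20% and 1.47%, with 0.964% and 1.29% over all autosomal bins under that rule. In scramble cells 36 were gained and 43 lost, 1.04% and 1.25%, with 0.995% and 1.24% over all autosomal bins under that rule. The most bins gained in scramble cells were the 5 of MACROD2, and the most lost in KO cells were the 4 of PDE4D.

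Whether the dexamethasone response differed between genotypes was tested as an interaction. It passed for 0 of the 258 very long genes and 0.0271% of all tested genes by limma, and 16 (6.20%) had an unadjusted p under 0.05, with 5.52% of all tested genes. The smallest adjusted p was that of C12orf42, 0.431. C12orf42 had 1.16, 1.33 and 1.20 kb in KO dexamethasone, against 0.905, 0.792 and 1.11 kb in KO DMSO libraries, and 2.13, 1.93 and 2.10 kb in scramble dexamethasone, against 3.65, 2.45 and 3.02 kb in scramble DMSO libraries. In C12orf42, in the receptor tyrosine kinase gene ALK and in DAB1, a reelin pathway adaptor, dexamethasone and DMSO libraries did not overlap after normalisation. Dexamethasone libraries lay above DMSO libraries in KO and below them in scramble cells. These genes were looked up for that pattern, which was not counted over all tested genes. The interaction did not pass for any of the 3. A missed threshold does not show that the responses were alike, and the low counts of calls for dexamethasone do not show that nothing changed.

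Shorter genes near the changed genes were set beside them, without a test. For each very long gene, the median log2 difference was taken over tested shorter genes within 1 Mb that do not overlap it. For the 49 genes higher in KO that had such neighbours, the median of these values was 0.03. The neighbours' value had the same sign in 32 of the 49 and exceeded 50% of the gene's own in 3. For the 60 genes lower in KO the median was -0.05, with the same sign in 37 and over 50% of the gene's own in 8. Called genes were chosen for large differences. The median size of the difference was 0.59 in very long genes and 0.135 in genes under 50 kb, so smaller values in neighbours were likely beforehand. The neighbours of MYT1L, a zinc finger gene of neurons that rose by 1.10 ± 0.12, had a median of 0.92. Those of PTPRM, which fell, had a median of 0.42, and those of STARD13 0.01. By chromosome, chromosome 7 held the most calls that were lower, 12 of 24 tested very long genes, with 4 higher, and 7.32% of its other tested genes were lower. On chromosome 13, 5 of 11 were higher and 2 lower, with a median log2 difference of 1.07, and that of its other genes was 0.03, with 6.52% of these higher and 1.74% lower. On chromosome 18, where PTPRM fell, 22.6% of the other tested genes were higher in KO. Copy number was not analysed here, and its part in these values was not tested.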

How the data were processed

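H3K27ac CUT&RUN peak lists of 12 RPMI 8226 libraries (4 groups of 3) were used. Per the submitters' processing notes, the authors used Bowtie2 2.4.2 and MACS3 3.0 with hg38. Each deposited list is in broadPeak format and gives peak positions, a score, a fold enrichment and −log10 p and q values per peak, 1 list per library. The score, fold enrichment and −log10 values are the authors' own; q values (at least 3) served to drop weak peaks in 1 alternative, and fold describes peaks. How peak calling was controlled and the depth are not given in the sources used here, so no interval from counts can be given.

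Covered base pairs of each library were summed inside the spans of 19974 RefSeq protein-coding genes (GRCh38.p14), after merging peaks, and checked against simulated intervals. limma 3.58.1 (R 4.3.3; trend and robust empirical Bayes, 4 group means, 8 residual degrees of freedom) was run on log2(base pairs + 500), quantile-normalised, for 14770 genes covered in at least 3 libraries. Fold changes of genes with little coverage are understated by the 500 bp offset. The fit was tested on simulated data. Python 3.11.15, pandas 2.3.3 and Matplotlib 3.10.9 did the rest.

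Genes named are, per comparison, up to 10 called each way by size, or the 5 of smallest p where fewer passed; the 15 most covered and the 10 with the largest covered share; those with the most changed bins; and up to 3 of smallest p per role list. The genes, role lists and named genes were chosen with earlier results of these data known. Spans hold all annotated transcripts, and 8 of the 286 overlap other protein-coding genes over more than 10% of their length. Same-numbered libraries did not deviate together (correlations of −0.0667 to 0.0935 over 18 pairs), so no block was used. Some genes that met the rule are not reported here. Alternatives left out 1 library at a time, changed the normalisation, offset, gene filter, span edges, peak strength and bin rule, or added a replicate block.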

Additional observations from a re-analysis of the deposited data

How the results depend on the processing

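The knockout counts stayed within 1.5 times in all alternatives run. Averaged over treatments, between 101 and 113 very long genes were called when 1 library was left out, 57 to 70 under DMSO and 59 to 82 under dexamethasone, and with the replicate block 116. Of the 120 genes called, 94 were called in each of the 12 fits that left out 1 library, and 58 (22 higher and 36 lower) in all 24 alternatives run on that average. The dexamethasone calls did not hold. Averaged over genotypes, 0 were called with 25 kb added to spans, with gene bodies only, with strong peaks (−log10 q of at least 3), with no gene filter, with coverage in at least 6 libraries or with the replicate block, which is not a pairing the labels support. The count was 1 with equal covered length, with no normalisation and with limma without trend and robust, and 0 to 2 with 1 library left out. In scramble cells it was 1 with strong peaks and 0 to 1 with 1 library left out, and in KO cells 1 with no normalisation, 1 with an offset of 100 bp and 0 to 1 with 1 library left out. The interaction gave 0 throughout.

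Bin counts follow the rule for presence. With strong peaks, bins gained and lost with dexamethasone were 21 and 16 in scramble cells and those lost in KO cells 16, and those gained and lost in KO were 118 and 310 under DMSO, with 160 gained under dexamethasone. With equal covered length, bins lost with dexamethasone in scramble cells were 26. Counting a bin from 1 bp gave 66 lost in scramble and 59 gained and 72 lost in KO cells with dexamethasone, and in KO 305 gained and 796 lost under DMSO and 399 gained under dexamethasone. Requiring all 500 bp gave 19 gained and 27 lost in scramble and 17 gained and 22 lost in KO cells with dexamethasone, and in KO 94 gained and 274 lost under DMSO and 119 gained and 261 lost under dexamethasone. Leaving out 1 library asks for fewer libraries and so raises counts: with dexamethasone to 58 to 111 gained and 71 to 200 lost in scramble cells and 56 to 115 gained and 61 to 184 lost in KO cells, and in KO to 228 to 368 gained and 549 to 804 lost under DMSO and 280 to 382 gained and 553 to 716 lost under dexamethasone.

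Directions turned on the log2 scale in 12 cases. With strong peaks, the interaction of C12orf42 was -0.027, the dexamethasone difference in scramble cells of CNTN4 was -0.086, the interaction of FSTL4 was 0.073, the averaged dexamethasone difference of PPFIA2 was 0.15, the averaged knockout difference of PTPRD was -0.19 and the averaged knockout difference of PTPRT was 0.020. With equal covered length, the dexamethasone difference in scramble cells of CNTN4 was -0.011, the averaged knockout difference of GSE1 was 0.033 and the averaged knockout difference of PTPRD was -0.0031. Without parts in other genes, the averaged knockout difference of RANBP2 was -0.18. Without normalisation, the averaged knockout difference of RANBP2 was -0.095. With scaling to total covered length, the averaged knockout difference of RANBP2 was -0.11. The cause was not tested. The difference in the very long genes' share of covered length, KO minus scramble, was -0.0302 percentage points without the 9 genes with the most lost bins, an alternative chosen after seeing the data. Leaving out genes picked for their losses was bound to narrow this difference. Read depth is unknown, so a peak missing from a library may lie under its calling limit. No control library is named in the labels, and none was used here.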

Other observations

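Peaks inside very long genes were narrower and weaker by the authors' own measures than peaks elsewhere in the same library. Their median width was 768 to 853 bp over the 12 libraries, against 950 to 1038 bp for other peaks. The median fold enrichment of the authors' lists was 3.01 to 3.65 inside very long genes, against 3.12 to 3.76 elsewhere, and it was lower inside in each of the 12 libraries. Peaks with a −log10 q of at least 3 made up 37.4% to 53.1% inside very long genes and 45.4% to 59.3% elsewhere.

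More of the very long genes differed between the genotypes than between 2 h of dexamethasone and DMSO within a genotype, by the counts given. Their summed covered length was 1.62 ± 0.169 Mb in KO dexamethasone and 1.70 ± 0.231 Mb in KO DMSO libraries (SD, n = 3 each). It was 1.81 ± 0.287 Mb in scramble dexamethasone and 2.11 ± 0.428 Mb in scramble DMSO libraries.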
